A study of Mus musculus with 12 samples.

Results

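The 6 tumour libraries from mice given interleukin-10, alone or fused to an antibody against CSF1R, fell into 2 classes by the code in their titles, and these classes were compared here. Of these, 3 carried a low code, namely IL-10-Fc C2-1, IL-10-Fc C2-3 and BF10 C4-2. The other 3 carried a high code, namely IL-10-Fc C6-1, BF10 C6-5 and BF10 C7-4. Values below follow this order, low codes first, then high codes. The whole series held 12 libraries, so the comparison used 6 of 12. The labels do not say what the code stands for. The split was chosen from values already seen in these libraries, that is their FPKM sums, their share of mitochondrial RNA and their level of Csf1r. For this reason the difference between the 2 classes is given as a description without a test, and every gene of these 6 libraries counts as used.

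The study sequenced RNA of orthotopic oral tumours grown from 1 cell line, MTC-Q1 (MTCQ1-2), a mouse oral cancer line that grows in C57BL/6 mice. The mice were 6 to 8 weeks old when bought, tumours stood at 100 mm3 when treatment began, and the labels give the number of doses as 4 in one place and as 6 in another. IL-10-Fc is interleukin-10 joined to an antibody Fc part, and BF10 is an anti-CSF1R antibody that carries interleukin-10. The 6 remaining libraries were Ctrl-IgG C1-1, C1-2 and C5-2, from mice given a control labelled as isotype IgG1-Fc, and aCSF1R C3-1, C3-3 and C6-4, from mice given the CSF1R antibody alone. No label ties a library to a separate animal, so the p-values below measure only the spread between libraries. IL-10-Fc held 2 low codes and 1 high code and BF10 held 1 and 2, so treatment and code were not balanced, and values within each treatment are given beside the pooled ones.

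Several kinds of transcript are useful for reading such a difference. Mitochondrial DNA encodes its own messenger RNAs, which are short, rich in A and U and made inside the organelle. Messenger RNAs of ribosomal proteins and of the nuclear respiratory chain subunits are short, abundant and long-lived, whereas those of immediate early genes turn over fast. In libraries made by capture of poly(A) tails and PCR, the value of a transcript depends on its abundance and also on the integrity of the RNA and on amplification. No measure of RNA integrity for these tumour libraries is given in the sources used here, so RNA quality and the biology of the tumours cannot be told apart below. FPKM, the unit used here, corrects a gene's fragments for transcript length and for the library's total, so that short abundant transcripts raise the sum of all values.

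Markers of simple epithelium summed to 885 to 1677 FPKM and those of stratified keratinocytes to 29.9 to 66.0 FPKM in the 6 libraries. The study describes the line as squamous carcinoma, yet the stratified markers, those of squamous epithelium, had the smaller sums, for a reason not tested. The libraries also differed in ways that the treatment labels do not describe. Xist, the RNA that coats the silent X chromosome of females, stood at 17.1 to 30.7 FPKM in the 6 interleukin-10 libraries and at no more than 0.04 FPKM in the 6 others. The Y-linked gene Eif2s3y stood at 0 to 0.05 FPKM in the interleukin-10 libraries other than BF10 C7-4, at 3.29 in BF10 C7-4 and at 4.23 to 11.3 in the others. Thus both sex-linked signals occurred together in BF10 C7-4. Marker sums of B cells were 226 FPKM in BF10 C6-5 and 126 in BF10 C7-4, against 1.16 to 3.54 in the remaining 4. These features divide the interleukin-10 groups from the other groups, or the BF10 high codes from the rest, and their part in the results below was not tested.

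The 2 classes differed in how their values were spread over transcripts. The FPKM sum was 951051, 976950 and 855961 in the low-code libraries and 655855, 637596 and 671528 in the high-code libraries. The means were 927987 ± 63706 and 654993 ± 16982 (SD, n = 3 each), and the classes did not overlap. The FPKM sum was one of the values that chose the split, so this separation is no separate result. The codes nearest the border were C4, with 855961, and C6, with 655855 and 637596. The 100 genes with the highest values held 48.8%, 51.3% and 42.5% of the sum in the low-code libraries, against 29.5%, 27.7% and 28.8%. Fewer genes reached 1 FPKM in the low-code libraries, 13014, 12575 and 13313, than in the high-code libraries, 13819, 14291 and 14602. FPKM keeps no depth, and the sources used here give reads per library only as a range for the whole study, so the reads behind each value are not known.

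Mitochondrially encoded RNA made up 9.04%, 7.69% and 6.57% of the FPKM sum in the low-code libraries. In the high-code libraries it made up 3.04%, 2.99% and 3.12%, so that the high-code libraries lay close together and the low-code ones stood well above them. This share was one of the values that chose the split, so its separation is no separate result. Messenger RNAs of cytosolic ribosomal proteins made up 25.3%, 27.2% and 23.0%, against 16.3%, 15.4% and 16.1%. Nuclear subunits of oxidative phosphorylation made up 2.67%, 2.62% and 2.54%, against 2.04%, 1.97% and 2.12%. Both kinds of transcript are short and abundant and raise the FPKM sum, which chose the split, so neither separation is a separate result. The share of mitochondrial ribosomal proteins, 0.53%, 0.50% and 0.55% against 0.53%, 0.52% and 0.55%, overlapped between the classes.

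**Figure D1:**
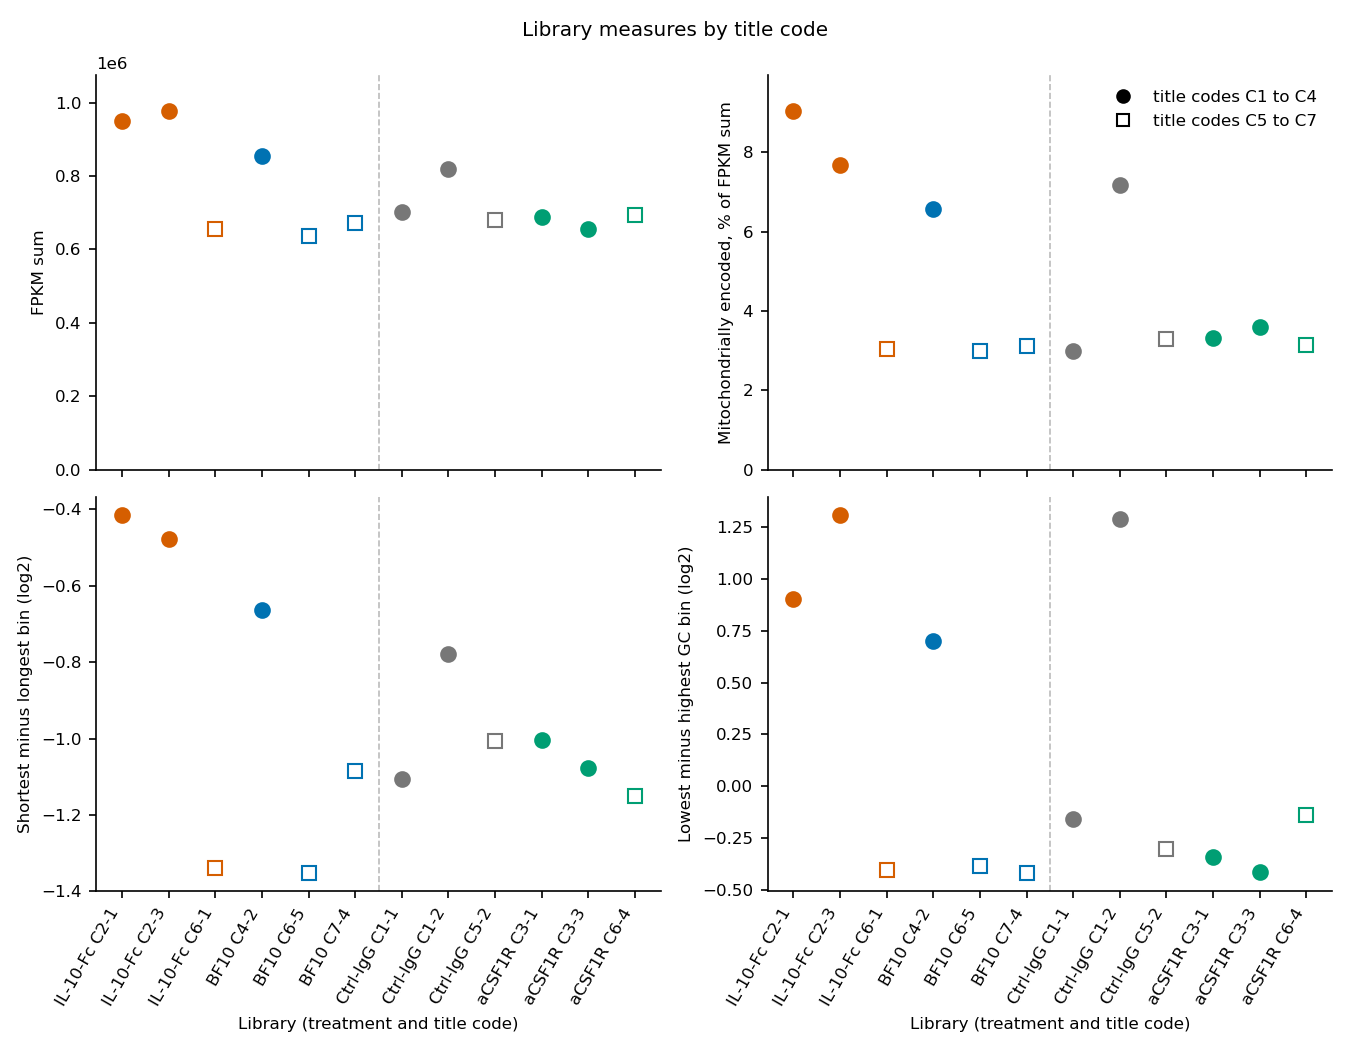
FPKM sum, percentage of mitochondrially encoded RNA, and median log2(FPKM + 1) of the shortest minus the longest and of the lowest-GC minus the highest-GC bin of genes, in each of the 12 libraries. Filled circles are title codes C1 to C4, open squares are C5 to C7, colours are treatments and the dashed line separates the interleukin-10 groups. The 3 low-code interleukin-10 libraries and Ctrl-IgG C1-2 stand above the other libraries in the FPKM sum, the mitochondrial share and the GC measure.

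Of 55401 genes, 15813 reached at least 1 FPKM in at least 3 of the 12 libraries and were compared. A gene was counted as higher or lower when the 3 low-code and the 3 high-code libraries did not overlap and their mean log2(FPKM + 1) differed by at least 1, that is 2-fold. By this rule 1256 genes (7.94%) were higher and 4604 (29.1%) were lower in the low-code libraries. Without the fold limit 11205 genes (70.9%) did not overlap. These shares describe the contrast that the split was chosen on. Counts of list members below are to be read against 7.94% higher and 29.1% lower. The median gene differed by -0.51 on the log2 scale, by -0.51 within IL-10-Fc and by -0.34 within BF10, so lists are given below relative to this median. The balance of the 2 directions depended on the scaling, since higher genes were 21.4% of the genes counted with the deposited values, 60.6% with median-of-ratios size factors (2801 higher and 1820 lower), 54.5% with quantile normalization (2203 and 1840), 57.4% after recentring on the median (2577 and 1915) and 5.47% after rescaling to TPM (420 and 7254).

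The difference followed transcript length. The FPKM sum, one of the values that chose the split, rises when short transcripts hold more of the fragments. The direction of this trend is therefore tied to that choice and is no separate result. Genes were cut into 5 equal bins by the length of their longest annotated transcript. The median difference was -0.02 in the shortest bin, -0.42, -0.61 and -0.77 in the next, and -0.76 in the longest. The shortest bin held 542 higher and 303 lower genes, and the longest held 113 higher and 1234 lower. The fall was steep over the shorter bins and flat over the last ones. In single libraries, the median of the shortest minus that of the longest bin was -0.41, -0.48 and -0.66 in the low-code libraries and -1.34, -1.35 and -1.08 in the high-code libraries.

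GC content divided the genes more widely. The median difference was 0.24 in the bin with the lowest GC content, then -0.24, -0.68 and -0.95, and -0.90 in the bin with the highest. The lowest bin held 646 higher and 158 lower genes, against 58 and 1375 in the highest. In single libraries the lowest-GC bin stood 0.90, 1.31 and 0.70 above the highest-GC bin in the low-code libraries. In the high-code libraries it stood below it, at -0.41, -0.39 and -0.42, so the sign itself differed between the classes. Within IL-10-Fc the median difference ran from 0.28 in the lowest to -0.98 in the highest GC bin, and within BF10 from 0.28 to -0.67.

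Length and GC content were then combined. Among the cells of length and GC bins, the most positive median was 0.50, in short genes of the next-to-shortest length bin with the lowest GC content, where 134 genes were higher and 8 lower. The most negative was -1.38, in the longest genes with the highest GC content, where 0 were higher and 265 lower. Among genes of the lowest GC bin the longest still had a median of 0.09. Subtracting the median of its cell from each gene removed 34.5% of the variance of the difference across genes, from an SD of 0.95 to 0.77. Genes are not independent replicates, and this share is a description. The bins are wide, since the longest ran from 4807 to 106824 bases and the lowest GC bin from 17.1% to 43.6%. Values below relative to genes of like length and GC are therefore coarse.

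**Figure D2:**
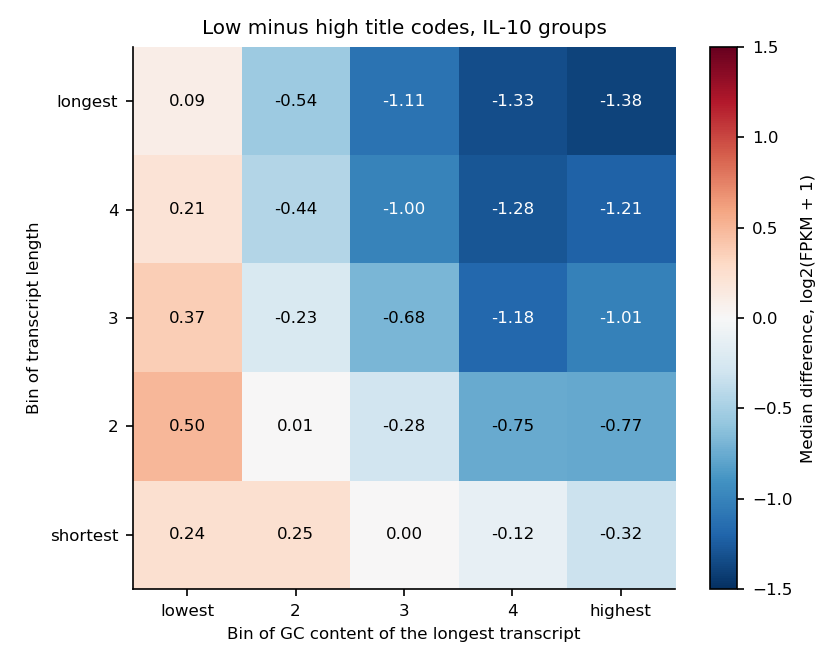
Median difference in log2(FPKM + 1), low minus high title codes in the 6 interleukin-10 libraries, for genes grouped by bins of transcript length (vertical) and of GC content (horizontal). Red cells are above 0 and blue cells below, from 0.50 in short genes of low GC content to -1.38 in the longest genes of high GC content.

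To give examples of sequences of lower and higher GC content, the first 120 coding bases of 6 genes are given, with G and C in capitals. The genes mt-Co3, Ifi202b and Lum were among the protein-coding genes with the largest positive differences, and Dync1h1, Supt5 and Chd4 among those with the largest negative ones. The genes were chosen as examples after their values were seen and do not represent all genes of either direction. Exosc6 (1326 bases, 64.9% GC) and Ulk4 (4629 bases, 52.7% GC) are not shown. Their positive differences, 4.02 and 2.97, were larger than those of the examples, although neither is low in GC content. The sequences are those of GENCODE M21 on GRCm38, from the start codon of the transcript used.
mt-Co3: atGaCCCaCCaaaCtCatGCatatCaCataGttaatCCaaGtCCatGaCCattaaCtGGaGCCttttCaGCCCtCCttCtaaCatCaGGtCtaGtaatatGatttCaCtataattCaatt
Ifi202b: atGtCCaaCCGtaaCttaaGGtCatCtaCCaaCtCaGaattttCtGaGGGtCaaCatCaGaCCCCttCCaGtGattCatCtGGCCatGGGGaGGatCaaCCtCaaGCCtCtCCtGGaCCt
Lum: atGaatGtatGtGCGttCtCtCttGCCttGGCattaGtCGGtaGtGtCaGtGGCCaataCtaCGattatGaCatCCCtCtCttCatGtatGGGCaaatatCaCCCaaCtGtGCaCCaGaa
Dync1h1: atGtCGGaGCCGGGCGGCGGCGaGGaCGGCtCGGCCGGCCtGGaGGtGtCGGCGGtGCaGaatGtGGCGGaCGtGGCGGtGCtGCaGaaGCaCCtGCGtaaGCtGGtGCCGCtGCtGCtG
Supt5: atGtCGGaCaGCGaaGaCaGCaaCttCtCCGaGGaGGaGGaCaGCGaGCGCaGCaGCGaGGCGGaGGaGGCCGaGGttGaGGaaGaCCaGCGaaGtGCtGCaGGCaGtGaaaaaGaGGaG
Chd4: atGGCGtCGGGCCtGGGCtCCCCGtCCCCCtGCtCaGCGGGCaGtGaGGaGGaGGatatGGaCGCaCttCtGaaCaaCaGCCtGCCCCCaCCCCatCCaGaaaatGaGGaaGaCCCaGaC

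The coding sequence of mt-Co3 (chrM:8607-9390, plus strand), a subunit of cytochrome c oxidase, was 784 bases long with 38.9% G and C. That of Lum (chr10:97565128-97572703, plus strand), the collagen-binding proteoglycan lumican, was 1014 bases with 44.5%, and that of Ifi202b (chr1:173962568-173982744, minus strand), an interferon-inducible protein, 1335 bases with 37.8%. By contrast Dync1h1 (chr12:110601452-110666945, plus strand), the heavy chain of cytoplasmic dynein, had 13932 coding bases with 53.5%. Supt5 (chr7:28314891-28338746, minus strand), a transcription elongation factor, had 3246 with 55.5%, and Chd4 (chr6:125095981-125130591, plus strand), a chromatin remodeler, 5745 with 52.2%. In the 120 bases shown, G and C took 37.5% in mt-Co3, 49.2% in Ifi202b and 45.0% in Lum. They took 71.7% in Dync1h1, 60.8% in Supt5 and 63.3% in Chd4.

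All 13 messenger RNAs of the mitochondrial genome were higher in the low-code libraries, with log2 differences from 1.35 (mt-Nd1) to 2.63 (mt-Co3). The share of mitochondrial RNA was one of the values that chose the split, so this direction was set by that choice. The most abundant, mt-Co1, stood at 20509, 20218 and 14247 FPKM in the low-code and 5367, 4609 and 5644 FPKM in the high-code libraries. For mt-Co3 the values were 5622, 2824 and 2278 FPKM against 515, 779 and 379 FPKM. In both genes each low-code library exceeded every high-code library. Relative to the median gene the list differed by 2.28, by 2.44 within IL-10-Fc and by 1.68 within BF10, and by 1.39 relative to genes of like length and GC content. With quantile normalization the list differed by 0.78 relative to the median gene. Both mitochondrial ribosomal RNAs, mt-Rnr1 and mt-Rnr2, were also higher, by 1.60 and 1.59, and 8 of 19 mitochondrial transfer RNAs were higher and 0 lower.

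The parts of the respiratory chain encoded in the nucleus moved the same way in part. Of 79 tested subunits 33 were higher and 3 lower, with a median of 1.37 relative to all tested genes and 0.89 relative to genes of like length and GC. With quantile normalization the median relative to all tested genes was 0.72. Cox7a2, a subunit of cytochrome c oxidase, stood at 1137, 1284 and 868 FPKM against 298, 297 and 327 FPKM. Uqcrc1, a core subunit of complex III with a transcript of 2473 bases and 53.0% GC, stood at 50.0, 26.2 and 53.9 FPKM against 140, 146 and 136 FPKM, the reverse order. Of the 33 subunits at or under the median GC content of tested genes 20 were higher and 0 lower, and of the 46 above it 13 were higher and 3 lower.

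Cytosolic ribosomal protein genes were mostly higher as well, a direction tied to the FPKM sum that chose the split. Of 88 tested, 52 were higher and 1 lower, and the median was 1.73 relative to all tested genes, 1.80 within IL-10-Fc, 1.28 within BF10 and 1.34 relative to genes of like length and GC. The size of this median depended on the scaling, since with quantile normalization it was 0.23 relative to all tested genes. Rps27a stood at 5087, 6258 and 3561 FPKM against 1338, 1104 and 1356 FPKM. The exception was Rps2, at 178, 94.2 and 229 FPKM against 529, 498 and 558 FPKM. Its transcript has 55.9% GC, and Rplp0, Rplp2 and Rpl8, with 53.0% to 58.3% GC, also did not overlap and had differences of -0.83, -0.81 and -0.66. Reads of ribosomal protein genes can be shared with their many pseudogenes, and processed pseudogenes, of which 181 of 872 were higher and 82 lower, are uncertain for this reason.

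The mitochondrial ribosome and the proteasome held genes of both directions. Among 78 mitochondrial ribosomal proteins 17 were higher and 17 lower. The 38 members at or under the median GC content held 15 of the higher and 3 of the lower genes, and the 40 above it held 2 and 14. Mrps14, with 39.6% GC, stood at 270, 273 and 197 FPKM against 78.9, 77.3 and 78.1 FPKM, whereas Mrps7, with 55.4%, stood at 6.23, 4.09 and 9.16 FPKM against 24.1, 26.4 and 28.3 FPKM. Both encode proteins of the small subunit of the same particle. Of 37 proteasome subunits 10 were higher and 7 lower, from Psmc6 (37.0% GC, a difference of 1.57) to Psmd3 (55.4% GC, -1.61). The sign of both list medians depended on the scaling, at -0.04 and 0.25 with the deposited values, -0.53 and -0.25 as TPM and 0.62 and 0.91 with median-of-ratios size factors.

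At the other end of the length scale stood genes of giant proteins such as motors, spectraplakins and ubiquitin ligases. Of 28 tested, with a median transcript of 15407 bases, 16 were lower and 0 higher. The median was -0.78 relative to all tested genes and -0.23 relative to genes of like length and GC. The longest length bin began at 4807 bases, so genes of like length could be far shorter. Dync1h1 stood at 10.5, 9.83 and 22.1 FPKM against 133, 136 and 123 FPKM. Ubr4, a ubiquitin ligase, stood at 6.81, 6.22 and 9.49 FPKM against 55.02, 57.6 and 68.4 FPKM. Vps13a, with 10838 bases and 40.1% GC, went the other way and stood at 45.2, 52.2 and 40.4 FPKM against 25.6, 23.6 and 23.8 FPKM. Among 307 zinc finger genes, which encode DNA-binding proteins, 43 of the 217 at or under the median GC content were higher and 12 lower, and 0 of the 90 above it were higher and 44 lower.

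Under the rule for named genes, 12 genes in each direction with a mean of at least 5 FPKM in the higher class, the positive side held short noncoding transcripts besides Ulk4 and Exosc6. It held Mir147, the transfer RNAs mt-Tl2, mt-Tr, mt-Tg and mt-Ts1 and the ribosomal RNA n-R5-8s1. It also held the small nucleolar RNAs Rnu3b1 to Rnu3b4, whose 4 rows have identical values and cannot be told apart. FPKM divides by length, so few fragments can give a high value in transcripts this short. Mir147, of 79 bases, stood at 53.3, 53.4 and 11.8 FPKM against 0 in the high-code libraries, but at 25.3 FPKM in aCSF1R C3-3. Exosc6, a subunit of the RNA exosome, stood at 23.4, 9.31 and 15.8 FPKM and was listed at 0 in the 3 high-code libraries and in all 6 others. Ulk4 stood at 34.2, 42.1 and 19.2 FPKM against 3.81, 3.88 and 1.74 FPKM. Chosen afterwards, the protein-coding genes with the largest positive differences also included Ifi202b (2.47), Retnlg (2.42), Lum (2.23), Rpl22l1 (2.20), Wfdc17 (2.18) and Aspn (2.18).

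The negative side held the protein-coding genes Dync1h1, Hirip3, Adsl, Supt5, Ddx27, Chd4, Ubr4 and Mybbp1a. It also held 4 microRNA precursors, Mir3082, Mir677, Mir686 and Mir7005. These precursors were 64 to 109 bases long, so the limit given above for very short transcripts applies to them. Hirip3, a histone-binding protein, stood at 4.46, 5.64 and 7.16 FPKM against 57.0, 56.6 and 49.4 FPKM. Adsl, an enzyme of purine synthesis, had a difference of -3.04, Supt5 of -2.91, Ddx27, an RNA helicase, of -2.89, Chd4 of -2.87 and Mybbp1a of -2.86. In each of these protein-coding genes the high-code values were several times the low-code values and did not overlap. Supt5 stood at 4.80, 5.11 and 6.88 FPKM against 45.9, 49.7 and 48.8 FPKM, and at 57.2, 15.3 and 66.6 FPKM in the Ctrl-IgG libraries C1-1, C1-2 and C5-2.

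Macrophage genes, the cells that the CSF1R antibody is aimed at, did not move as a group. Of 18 markers 3 were higher and 8 lower, and the median was 0.34 relative to all tested genes and 0.20 relative to genes of like length and GC. Csf1r, the receptor of the macrophage growth factor and one of the values that chose the split, stood at 14.1, 11.7 and 13.1 FPKM against 48.6, 79.1 and 67.0 FPKM. Itgam, an integrin of myeloid cells, stood at 5.57, 5.00 and 8.60 FPKM against 28.9, 44.9 and 36.0 FPKM. In contrast Lyz2, lysozyme, stood at 2143, 1919 and 1478 FPKM against 604, 1034 and 877 FPKM, and the complement gene C1qc at 571, 519 and 417 FPKM against 201, 261 and 289 FPKM.

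The 3 complement C1q chains are made by the same macrophages, and they differed among themselves. C1qa stood at 399, 334 and 330 FPKM against 274, 349 and 371 FPKM and C1qb at 169, 147 and 180 FPKM against 177, 233 and 274 FPKM, both with overlap. The 9 macrophage markers with transcripts over the median length of 2887 bases had 0 higher and 6 lower genes, and the 9 at or under it 3 and 2. The scores of the list in single libraries overlapped between the classes, and its sign with all scalings was not the same, at -0.17 with the deposited values, -0.67 as TPM and 0.49 with median-of-ratios size factors. In tissue RNA, fewer cells of a type and less RNA per cell cannot be told apart.

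Neutrophil markers went both ways. Retnlg, S100a8, S100a9, Stfa2 and Mmp8 were higher and Mmp9, Csf3r and Ngp lower, of 13 tested. Among all tested genes 7.94% were higher and 29.1% lower. S100a8, a calcium-binding protein that fills the neutrophil cytoplasm, stood at 1892, 1084 and 681 FPKM against 394, 195 and 293 FPKM. Csf3r, the receptor that drives neutrophil formation, stood at 4.54, 1.66 and 3.49 FPKM against 12.9, 9.99 and 11.6 FPKM. The 6 markers at or under the median GC content held 5 higher and 0 lower genes, and the 7 above it 0 higher and 3 lower.

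Stromal genes followed the same pattern. Of 11 fibroblast markers, Lum, Dcn, Fap and Postn were higher and Col1a1, Col1a2 and Thy1 lower. Lum stood at 249, 147 and 123 FPKM against 45.2, 29.8 and 30.2 FPKM, and Col1a1, a chain of type I collagen, at 162, 116 and 149 FPKM against 618, 450 and 321 FPKM. The higher ones had 36.3% to 41.9% GC and the lower ones 55.7% to 58.9%. Of 29 collagen genes 14 were lower and 0 higher, with a median of -0.38 relative to all tested genes that became 0.44 relative to genes of like length and GC. Of 12 endothelial markers 7 were lower, among them Eng and Cdh5, and 1, Emcn with 40.7% GC, was higher.

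**Figure D3:**
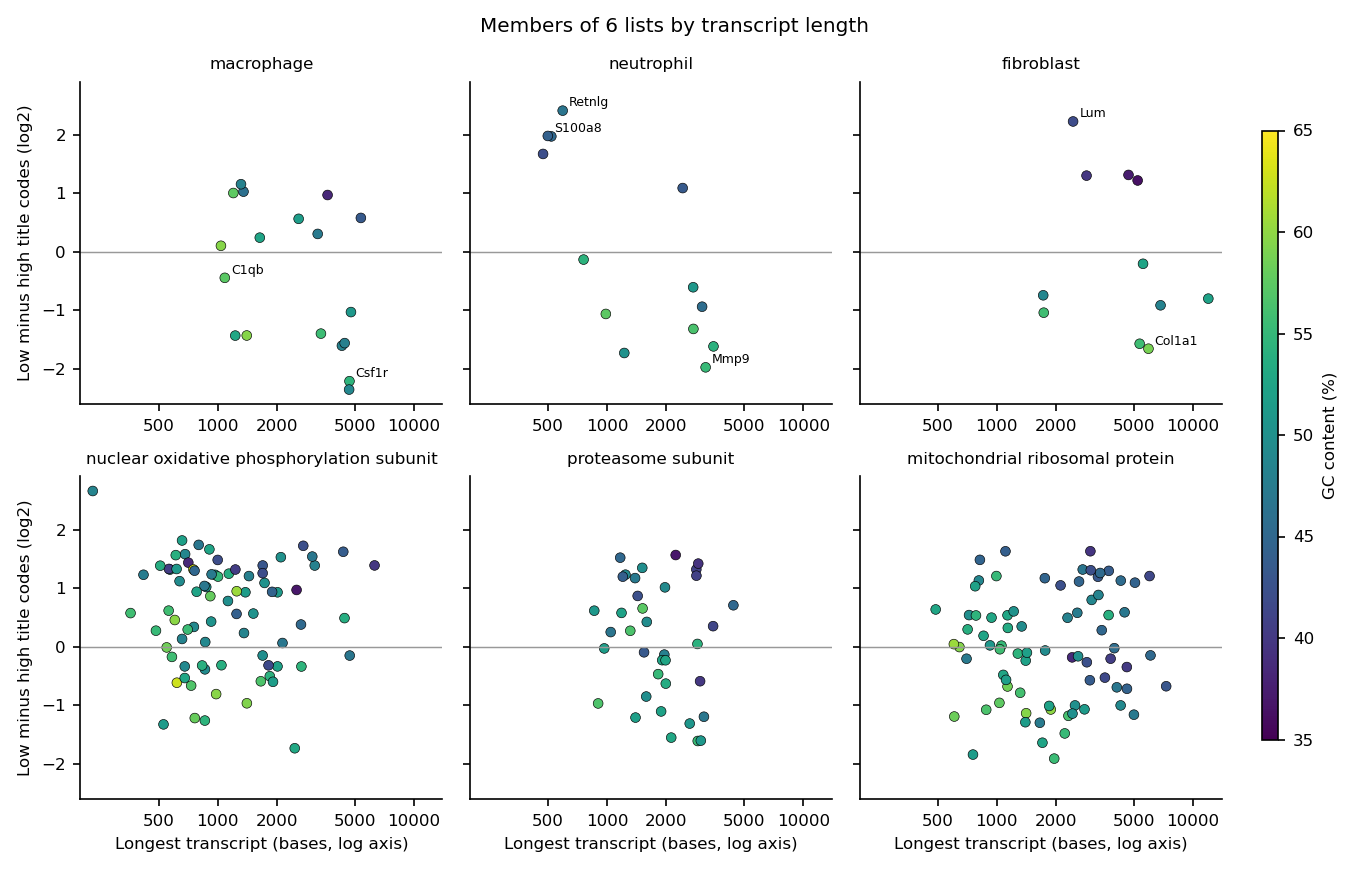
Difference in log2(FPKM + 1), low minus high title codes in the 6 interleukin-10 libraries, of each tested member of 6 gene lists against the length of its longest transcript (log axis), coloured by GC content. Within the fibroblast and neutrophil panels the higher points are dark (low GC content), as with Lum (2.23), and many of the lower ones lighter, as with Col1a1 (-1.66); in the macrophage panel the directions are mixed.

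The B cell difference lay within BF10, while other lymphoid markers went both ways. Cd79a, part of the B cell receptor, stood at 0.32, 0.05 and 0.27 FPKM in the low-code libraries, at 0.31 FPKM in IL-10-Fc C6-1 and at 51.0 and 29.6 FPKM in BF10 C6-5 and C7-4. The difference thus lay between the BF10 high-code libraries and all 4 others, and 0 of 4 tested B cell markers met the rule. Immunoglobulin V segments, 64 of them tested, summed to 154, 19.1 and 106 FPKM against 94.2, 655 and 2614 FPKM, and 22 were lower. Of 12 T cell markers 4, Cd3e, Cd247, Cd6 and Zap70, were lower and 0 higher. Both counts are near the 29.1% of all tested genes that were lower and say nothing particular to these genes. Cd3e stood at 1.42, 0.48 and 1.58 FPKM against 2.14 FPKM in IL-10-Fc C6-1 and 11.3 and 8.17 FPKM in the BF10 libraries. Of 8 tested monocyte genes 2, Ccr2 and Plac8, were higher, 1, Fn1, was lower and 5 met neither rule. Of 9 tested NK genes 1, the receptor gene Ncr1, was higher, 1, the perforin gene Prf1, was lower and 7 met neither rule. Among all tested genes 7.94% were higher and 29.1% lower, and these few genes are no result for either cell type.

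Genes of the interleukin-10 and CSF1R pathways were mostly lower in the low-code libraries. Of 10 tested 7 were lower and 0 higher, with a median of -0.77 relative to all tested genes, -1.06 within IL-10-Fc and -0.71 within BF10. The value relative to genes of like length and GC was -0.09. The level of Csf1r itself was one of the values that chose the split. Stat3, the transcription factor that acts below the interleukin-10 receptor, stood at 14.0, 13.9 and 19.2 FPKM against 60.3, 63.6 and 59.7 FPKM. Csf1, a ligand of CSF1R, stood at 12.8, 12.3 and 24.2 FPKM against 85.9, 79.2 and 73.3 FPKM. The receptor chains Il10ra and Il10rb had differences of -1.06 and -1.49. Il10 itself, at 2.96, 2.31 and 1.62 FPKM against 1.73, 0.74 and 1.37 FPKM, overlapped.

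Immediate early genes, which respond within minutes and whose messenger RNAs decay fast, were lower. Of 17 tested 13 were lower and 0 higher, and the median was -0.81 relative to all tested genes and -0.37 relative to genes of like length and GC. Egr1 stood at 8.75, 7.32 and 10.7 FPKM against 49.4, 43.1 and 37.0 FPKM. Among the 4 that met neither rule, Atf3, Ier2, Klf2 and Junb, only Junb had no negative difference, at 235, 201 and 253 FPKM against 265, 200 and 191 FPKM. Of 17 tested hypoxia and glycolysis genes 7 were lower, among them Vegfa and Slc2a1, and of 11 heat shock genes 5 were lower and 1, Hsp90aa1, was higher. Over all tested genes 29.1% were lower and 7.94% higher. The nuclear long noncoding RNA Neat1 stood at 62.8, 70.6 and 79.9 FPKM against 363, 292 and 308 FPKM, while Tug1, with 37.9% GC, was higher by 1.17.

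Proliferation and interferon genes went both ways too. Of 19 proliferation genes 2 were higher, Top2a and Ccnb1, and 7 lower, and all 6 with GC content above the median of tested genes were among the lower. The counts of 2 and 7 are near the 7.94% of all tested genes that were higher and the 29.1% that were lower. Top2a stood at 470, 477 and 393 FPKM against 227, 226 and 200 FPKM, and Aurkb, a mitotic kinase, at 8.92, 7.93 and 13.6 FPKM against 53.1, 57.2 and 51.9 FPKM. Of 18 interferon gamma and antigen presentation genes, B2m, Cxcl9, Gbp2 and Iigp1 were higher and Cd74, H2-Ab1, H2-D1 and Ciita lower. B2m, the light chain of MHC class I, stood at 9478, 10701 and 7360 FPKM against 2763, 2484 and 2930 FPKM. H2-D1, a heavy chain of the same complex, stood at 325, 275 and 405 FPKM against 1682, 1499 and 1604 FPKM, in the opposite direction.

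Over all 39 lists, which together cover cell types, complexes and responses, 20 had a median above and 19 below that of all tested genes. The library scores, each a list's median log2(FPKM + 1) minus that of all tested genes in that library, stood apart with the low codes above in 18 lists and below in 7, and overlapped in 14. A list whose values hardly move can stand above because the median gene fell. Stratified keratinocyte stood above with 0 higher and 1 lower of 17 genes and a median difference of -0.06 in the deposited values. Relative to the median gene this list lay at 0.45, but at 0.03 after median-of-ratios scaling and at 0.81 as TPM. Salivary gland stood above on 2 tested genes, with a median difference of -0.03. For fibroblasts the scores stood above although the median of gene differences was -0.24 relative to the median gene. Relative to genes of like length and GC, 8 lists changed side. Hbb-bt and Hbb-bs, beta globin genes of red cells, were higher, and 3 of 33 tested histone genes were higher and 1 lower, against 7.94% and 29.1% of all tested genes.

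**Figure D4:**
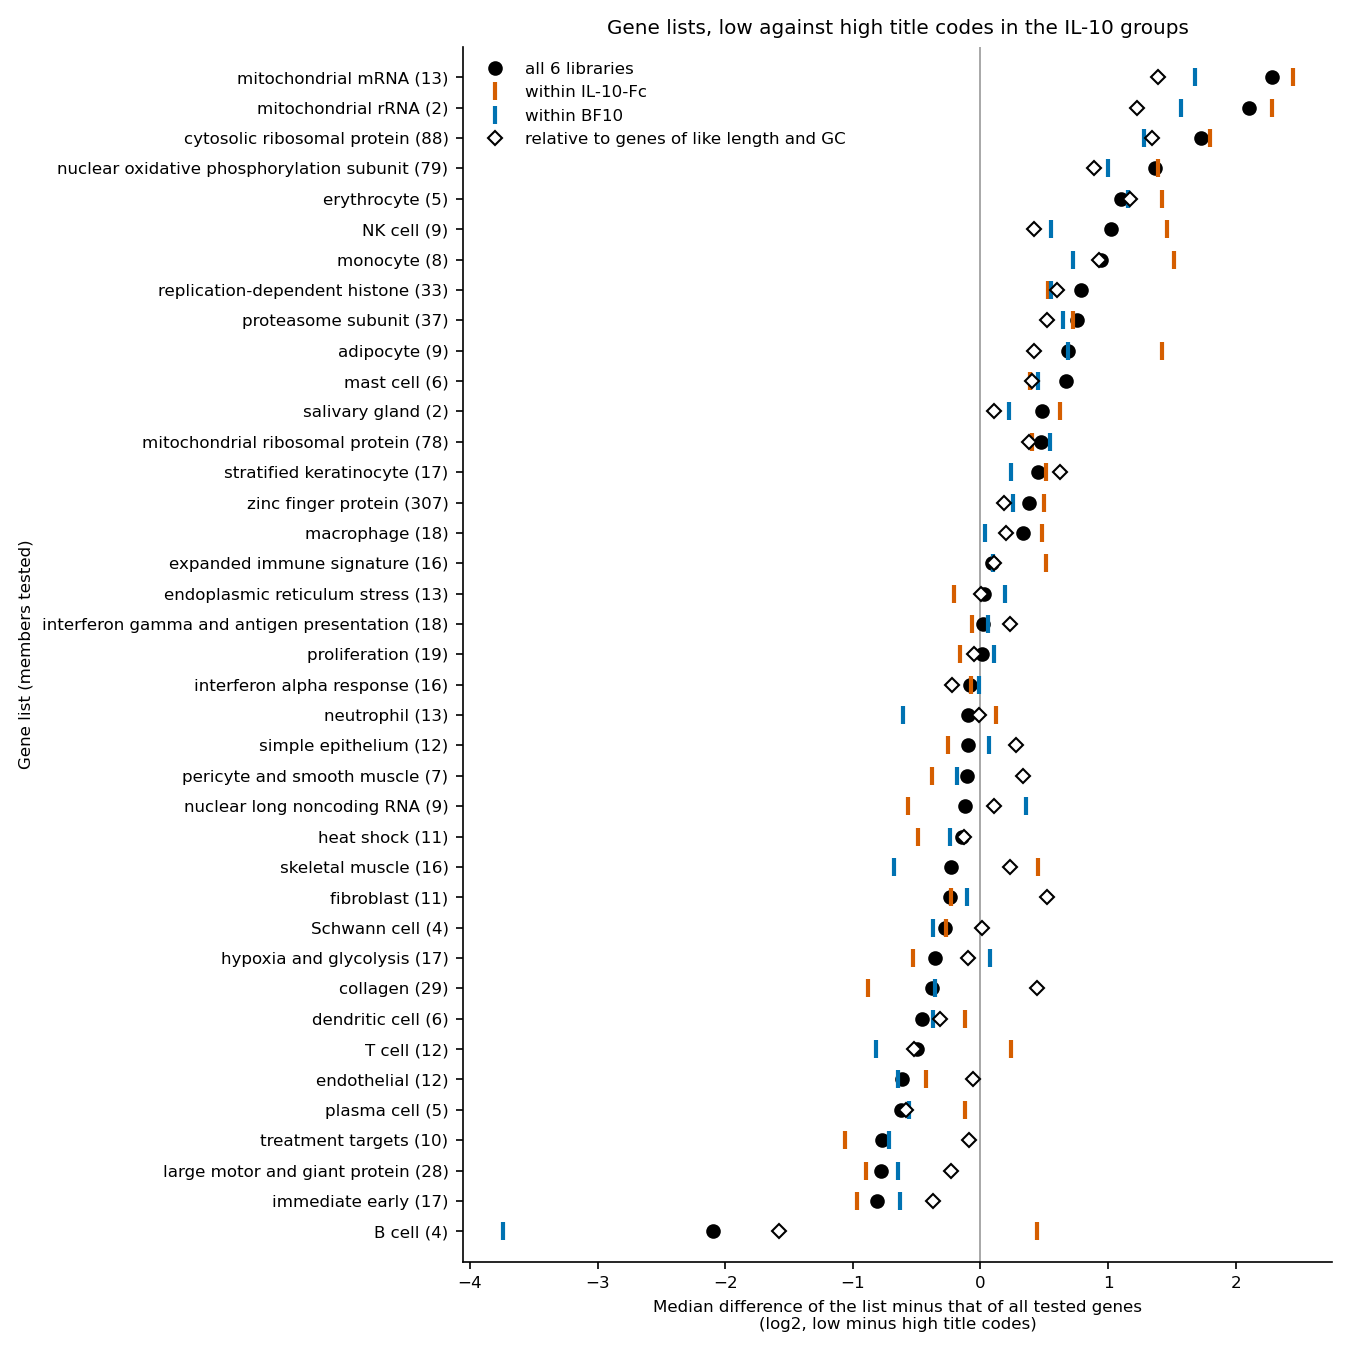
Median difference in log2(FPKM + 1) of 39 gene lists minus the median of all tested genes, low minus high title codes, over the 6 interleukin-10 libraries (black circles), within IL-10-Fc (orange bars), within BF10 (blue bars) and relative to genes of like length and GC content (open diamonds); the number of tested members is in brackets. Mitochondrial and ribosomal lists lead at 2.28, 2.10 and 1.73, and the B cell list is last at -2.09 with its within-treatment values far apart.

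The differences within the 2 treatments used disjoint libraries and could be set side by side. Across the 15813 genes the difference within IL-10-Fc and that within BF10 had a Pearson r of 0.81 and a Spearman rho of 0.85, and 86.6% of genes had the same sign. Genes are not independent replicates, and the split was chosen with these libraries in view. Libraries of the same class correlated at 0.963 to 0.981 across genes, and libraries of different classes at 0.855 to 0.923.

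**Figure D5:**
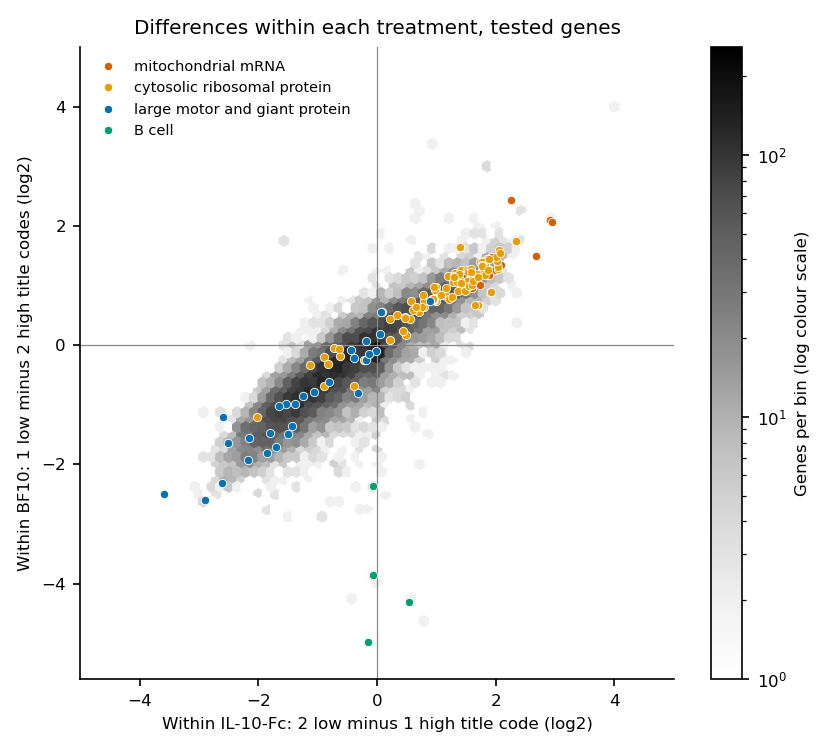
Difference in log2(FPKM + 1) between low and high title codes within IL-10-Fc (horizontal, 2 low against 1 high) and within BF10 (vertical, 1 low against 2 high) for the 15813 tested genes; grey shade is the number of genes per bin on a log colour scale and coloured points are members of 4 lists. Most genes lie near the rising diagonal (r = 0.81), and the 4 B cell genes lie near 0 horizontally and far below 0 vertically.

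The 6 Ctrl-IgG and aCSF1R libraries were not used by the split, and title codes were tested in them. Codes C1 and C3, 4 libraries, were set against C5 and C6, 2 libraries, with limma on log2(FPKM + 1) and treatment as a covariate. At an adjusted p under 0.05 and at least 1.5-fold, 1 gene (0.00632%) was called, Mir7026, a microRNA precursor of 67 bases, lower at low codes by a log2 difference of -3.23 (limma, adjusted p = 0.0350). It was listed at 0 in all 4 low-code libraries and stood at 8.07 and 8.77 FPKM in the others. The limit given above for very short transcripts applies to it as well. In total 133 genes had an unadjusted limma p under 0.05. The call was lost when any of 4 libraries, Ctrl-IgG C1-1, Ctrl-IgG C1-2, aCSF1R C3-1 or aCSF1R C3-3, was left out, while 59 genes were called without Ctrl-IgG C5-2 and 190 without aCSF1R C6-4, fits in which the lone high-code library is assumed to vary like the rest.

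Library measures of these 6 libraries were compared by a two-sided exact permutation test, for which 15 assignments allow no p below 0.0667, so no measure could reach the usual threshold. The mitochondrial share was 3.00%, 7.19%, 3.32% and 3.61% at low codes and 3.30% and 3.15% at high codes (exact permutation p = 0.60, adjusted over 10 measures 0.93). For the lowest minus the highest GC bin the exact permutation p was 0.93. Only Ctrl-IgG C1-2 resembled the low-code interleukin-10 libraries, with an FPKM sum of 819001, a GC measure of 1.29 and 38.9% of the sum in its 100 highest genes. The remaining low-code libraries C1-1, C3-1 and C3-3 had GC measures of -0.16, -0.34 and -0.42, which overlap the high-code values of -0.30 and -0.14.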

How the data were processed

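Tumour RNA was sequenced by the authors as 12 stranded poly(A) mRNA libraries (TruSeq, NextSeq 550). The paper's list of resources calls the tumour tissue of this series mixed, without explaining the word. The authors deposited FPKM values for 55401 genes, 1 column per library; the submitters' processing notes name STAR 2.7.5a, RSEM 1.3.3, DESeq2 1.30.0 and the builds mm10 and GRCm38, without their roles. FPKM holds no counts, and RSEM estimates need not be whole, so no count model was fitted. The study's methods give a range of reads for its libraries but not the depth of each, so depth could not be compared between codes. The 4 deposited tables of the authors' comparisons between treatments, with fold changes and p-values, were not used. Groups came from the treatment labels, and 0 columns lacked a sample.

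Genes at 1 FPKM or more in 3 or more libraries were kept and log2(FPKM + 1) was compared, so fold changes of low genes are understated. Lengths and GC contents are those of the longest GENCODE M21 transcript, which held 55141 identifiers and gave a value for 99.9% of tested genes. The 6 other libraries were tested with limma 3.58.1 (R 4.3.3), with an intensity trend and Benjamini-Hochberg adjustment, on code that was first tested on simulated data. Named genes were the 13 mitochondrial messenger RNAs, list members and the 12 largest differences in each direction with at least 5 FPKM in the higher class, leaving out predicted genes, pseudogenes and receptor segments. The protein-coding extension of that list was chosen after values were seen. The split, members and lists were chosen with earlier results of these data known, and histone and Car9 symbols were adapted to those in the table. Alternatives were the pseudocount, filters, scalings, mitochondrial genes left out, each library left out and each treatment alone.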

Additional observations from a re-analysis of the deposited data

Results flagged for a closer look

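Within IL-10-Fc and within BF10, the score of 6 cell type lists (low minus high title codes, log2 scale) had opposite signs, a difference that was not tested. The macrophage score was 0.62 within IL-10-Fc and -0.19 within BF10. The T cell score was 0.44 and -0.88, and the B cell score 0.78 and -3.66. For dendritic cells the scores were 0.28 and -0.39, for simple epithelium -0.40 and 0.31, and for Schwann cells 0.087 and -0.13. IL-10-Fc had 1 high-code library and BF10 1 low-code library, so each score rests on a single library on one side.

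Among the 4 Ctrl-IgG and aCSF1R libraries with codes C1 or C3, Ctrl-IgG C1-2 lay far from the others in 3 measures. Its FPKM-weighted GC content was the lowest at 47.4%, its lowest minus highest GC bin the highest at 1.29, and its mitochondrial share the highest at 7.19%. Such a distance among 4 libraries can also arise by chance, which was not tested, and the 3 measures come from the same library.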

How the results depend on the processing

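Depth is not given by FPKM, which limits what can be said of low genes. The count of higher genes, 1256, became 420 as TPM, 2801 with median-of-ratios size factors, 2203 with quantile normalization, 501 with mitochondrially encoded genes left out and the rest rescaled, and 2577 after recentring, an alternative chosen after seeing the data; lower genes, 4604, became 7254, 1820, 1840, 6976 and 1915. Without 1 library they ran from 1169 to 1425 and from 3930 to 5338. Among genes averaging 5 FPKM or more, the shortest minus longest bin rose from 0.74 to 0.95 and the lowest minus highest GC bin from 1.14 to 1.52. With nuclear genes only, the difference in FPKM sum was 220508 and in weighted GC content -1.67 points. In the other libraries, limma called 0 genes when all genes above 0 entered (646 at an unadjusted p under 0.05), 59 without the library of code 5 and 3 with it as low, and 0 to 190 without 1 library. No paired analysis was possible because replicate numbers follow sample order and the low and high codes compared share only 1 last title number in either set of libraries.

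Of lists whose library scores stood apart, these medians relative to all tested genes changed sign. Relative to genes of like length and GC, fibroblast became 0.52, pericyte and smooth muscle 0.33, proliferation -0.050, nuclear long noncoding RNA 0.11 and collagen 0.44. As TPM, proliferation became -0.073 and interferon gamma -0.068, and with quantile normalization -0.38 and -0.44, and proteasome -0.017. Within IL-10-Fc alone, proliferation was -0.16 and interferon gamma -0.063, and within BF10 nuclear long noncoding RNA was 0.36. Without 1 library, fibroblast ran from -0.33 to 0.23, proliferation from -0.082 to 0.065, interferon gamma from -0.21 to 0.15, the expanded immune signature from -0.27 to 0.30 and nuclear long noncoding RNA from -0.33 to 0.0053. The cause was not tested.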

Other observations

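Ifi202b, an interferon-inducible gene, stood at 584, 741 and 374 FPKM in the low-code and 115, 96.2 and 83.6 FPKM in the high-code interleukin-10 libraries, and at no more than 1.73 FPKM in the 6 libraries of Ctrl-IgG and aCSF1R. Lum stood at 0.18 to 11.1 FPKM in those 6 libraries, and Shfl at 2.88, 2.77 and 4.12 FPKM in the low-code, 28.1, 30.0 and 27.0 FPKM in the high-code and 0.23 to 3.23 FPKM in the other libraries. For Ifi202b and Lum, as for Xist, every interleukin-10 library lay above every other library. For Ifi202b and Lum, a difference between the mice of these groups cannot be told apart from treatment. The sex-linked signals of the groups are given above. For Shfl the low-code libraries overlapped the other libraries, and the high-code libraries lay above both.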
